A study of Mus musculus with 8 samples.

Results

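Transcripts of 34 genes for glucose and lactate transport, glycolysis, and glycogen synthesis and breakdown were compared between mutant and wild-type mouse hearts. The members were taken from a list of gene symbols that was chosen with earlier results of these data known. All 34 were found among the 49315 genes of the count files, and all 34 passed the filter on low counts that left 16372 genes for testing. Hearts were taken from E18.5 embryos of the mouse, Mus musculus, shortly before birth. There were 4 wild-type (WT) hearts and 4 hearts homozygous for M195I, a missense change in the chromatin-remodelling ATPase CHD4 (CHD4 M195I/M195I). The labels name no treatment, strain, litter or batch, and whether the hearts are from separate animals is not stated, so p-values measure the spread between these samples. The question was which of these transcripts differ in level between the genotypes.

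Glycolysis splits glucose to pyruvate in the cytosol and yields ATP without oxygen, and lactate dehydrogenase then turns pyruvate to lactate, which leaves the cell through monocarboxylate transporters. The fetal heart relies strongly on glycolysis and lactate and holds large glycogen stores, and after birth it turns mainly to fatty acids. Several steps are carried out by isozymes from different genes, some typical of muscle and some found in most tissues.

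The WT libraries held 18375951 to 20815388 counts and the mutant libraries 18673488 to 21341235. Levels are CPM (counts scaled to a common library size) scaled by TMM, a factor that evens out differences in composition between libraries, and are given as mean ± SD with n = 4 per genotype. Each log2 fold change is mutant minus WT with its standard error, and a gene was called at an adjusted p under 0.05 in edgeR's quasi-likelihood test with Benjamini-Hochberg adjustment over all 16372 genes. The column headers describe all 8 libraries as male, and Xist was at 1.25 to 1.98 CPM and the Y-linked Ddx3y at 35.5 to 80.4 CPM when scaled by library totals, as were all marker levels. Chd4 read 452 ± 6.37 CPM in WT hearts and 482 ± 8.48 CPM in mutant hearts (log2 fold change 0.09 ± 0.03, adjusted p = 0.094), and the counts do not show the mutated codon. The cardiomyocyte markers summed to between 33190 and 36030 CPM in WT and between 29300 and 35010 CPM in the mutants, with 2 of 10 called lower, so the labelled tissue carried its markers in every library. Airway and lung markers summed to at least 204 CPM in 5 libraries (WT 1, 3 and 4, mutant 3 and 4; highest 795 CPM) and to at most 11.03 CPM in the other 3.

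In the mutant hearts 21 of the 34 members fell and none rose. This is 61.8% of the members, beside 7.49% of all tested genes that were called lower and 5.75% called higher. As the list was chosen with earlier results of these data known, these shares are a description and no test. The median log2 fold change was -0.26 over the members and 0.00 over all tested genes. DESeq2 called 23 members lower and 0 higher, beside 1257 lower and 884 higher over all genes. At an unadjusted p under 0.05, 26 members were lower and 0 higher. The share of all genes at that unadjusted threshold was not counted. The fall ran from glucose uptake through the glycolytic enzymes to lactate dehydrogenase, the lactate transporter Slc16a3 and 2 genes of glycogen synthesis, while no gene of glycogen breakdown was called. The largest fall was that of Slc16a3 (-0.79) and the largest positive value that of Pfkfb1 (0.23), which was not called. Over 22 members the 4 mutant libraries lay wholly below the 4 WT libraries, as they did for 9.77% of all tested genes, and no member showed the reverse, which 8.8% of all genes did. In bulk tissue, fewer cells of a type and less RNA per cell cannot be told apart.

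The members together took 21280 ± 1040 CPM in WT hearts and 17280 ± 752 CPM in mutant hearts. Summed by library they stood at 20658, 22694, 20346 and 21411 CPM in WT replicates 1 to 4, and at 17451, 18191, 17082 and 16386 CPM in mutant replicates 1 to 4. No mutant sum reached the lowest WT sum. Mutant replicate 4 held the lowest mutant value for 18 of the 21 called members, and WT replicate 2 held the highest WT value for 16. These libraries also had the most extreme TMM factors, 1.03 in mutant replicate 4 and 0.96 in WT replicate 2. With library totals in place of TMM, 19 members were called lower and none higher, with a median of -0.21 beside 0.05 over all genes. That scaling called 858 of all genes lower and 1856 higher.

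**Figure D1:**
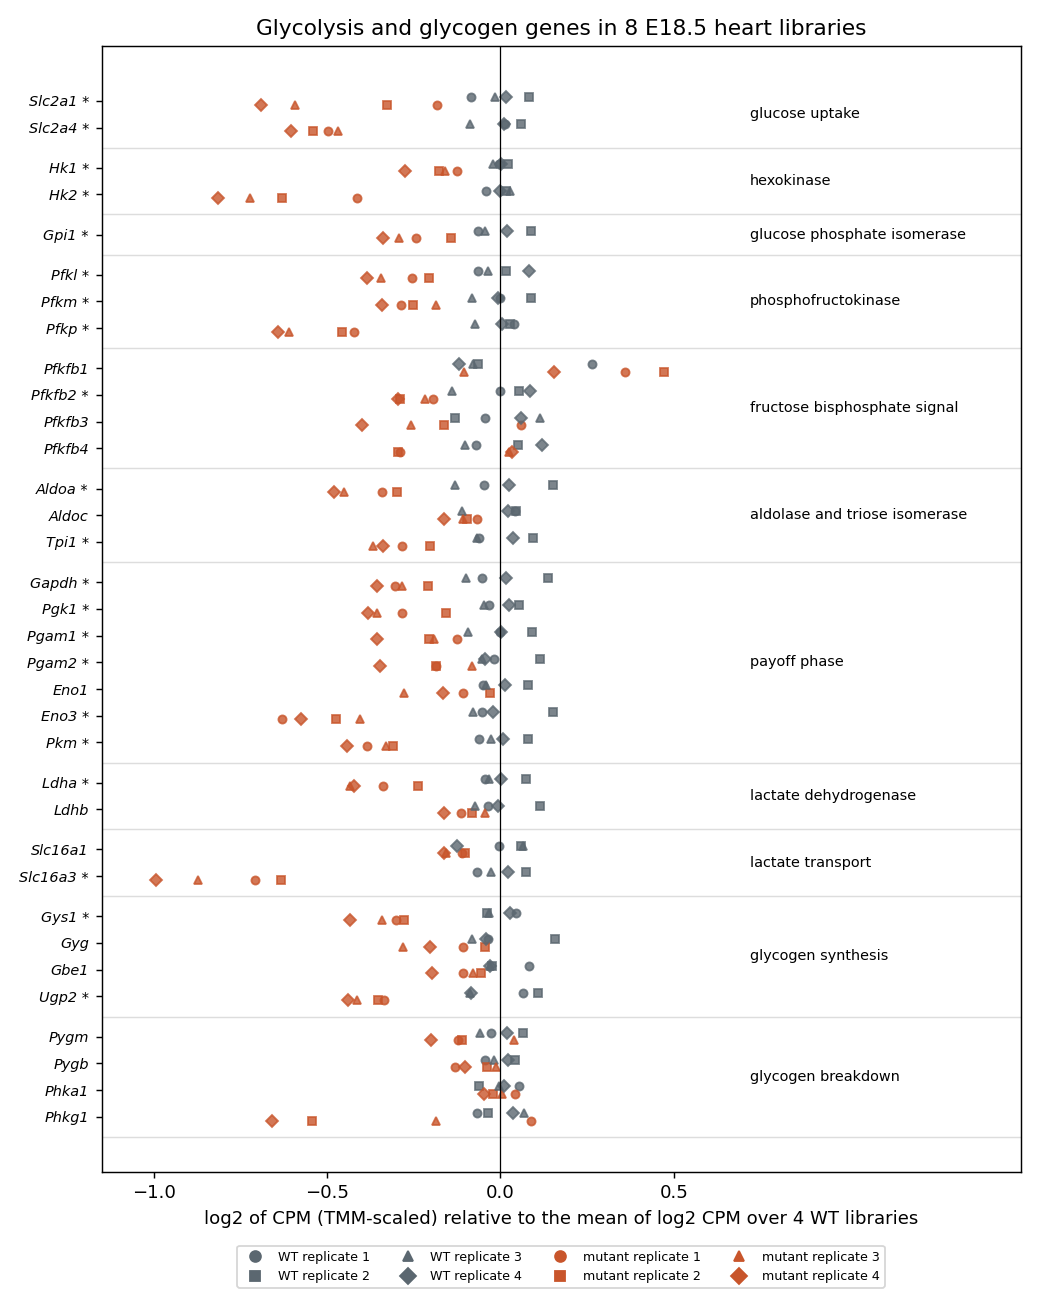
Each row is 1 member, grouped by pathway step, and each point is 1 library: its log2 CPM relative to the mean log2 CPM of the 4 WT libraries (grey WT, orange mutant, shapes for replicates, asterisk for a called gene). The orange points lie left of the grey ones for 22 members, farthest for Slc16a3 and Hk2, and overlap them in the rows of glycogen breakdown.

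Markers of other cell types were read from the same libraries. The erythroid sum was 2037 to 3830 CPM in WT hearts and 1299 to 2021 CPM in mutant hearts, without overlap. With the log2 haemoglobin level as a covariate, 10 members were called lower (Slc2a4, Hk2, Pfkp, Pfkm, Eno3, Pkm, Ldha, Slc16a3, Gys1 and Ugp2) and none higher, and the median was -0.25. Over all genes, 295 were then called lower and 133 higher, against 1226 and 942 without a covariate. The haemoglobin level moved largely with genotype, so this covariate and the genotype cannot be told apart in that fit. Xist was between 1.25 and 1.56 CPM in WT and between 1.55 and 1.98 CPM in the mutants. With Xist as a covariate 6 members were called lower (Slc2a4, Hk2, Pfkp, Eno3, Slc16a3 and Ugp2) and none higher, with a median of -0.15. Calls over all genes in that fit were 149 lower and 117 higher. Xist moved largely with genotype, so the covariate and the genotype cannot be told apart there. Skeletal muscle markers summed to between 2425 and 2623 CPM in WT and between 2089 and 2279 CPM in the mutants, and 3 of its 8 tested markers were lower. Ckm, which made up most of the sum and is also a heart gene, had a log2 fold change of -0.23 (adjusted p = 0.0039). Casq1, the calcium-binding protein of the sarcoplasmic reticulum, went from 72.3 to 91.3 CPM in WT to 37.7 to 48.3 CPM in the mutants (-1.05, adjusted p = 0.00032), and Myh8, the perinatal myosin, was at -0.34 (adjusted p = 0.033). Myod1 had no count in any library and Myog at most 0.321 CPM. Of the other marker lists, smooth muscle and pericyte markers (2148 to 2288 CPM in WT, 1812 to 2009 CPM in mutants) and brown fat markers (401 to 446 CPM in WT, 360 to 374 CPM in mutants) did not overlap between the genotypes; the brown fat sum was mostly Fabp4 and Cox7a1, and Ucp1 was at most 0.0495 CPM in any library. The summed markers of endothelium, fibroblasts, macrophages and epicardium overlapped. Within the 5 libraries with airway RNA, 19 of the 21 called members kept the call and all 21 stayed lower. No member was called higher there, beside 609 of all genes that were. How many of all genes were called lower in that fit is not given here, so the kept calls stand without that background. The other 3 libraries hold a single WT library and give no such check. The part of these markers in the members' fall was otherwise not tested.

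Since many members moved together, the sequence around their start sites is shown for the 3 called members with the smallest adjusted p that have an entry among the RefSeq promoters on GRCm38.p6 (33 of 34 members have one; Slc2a4 has none). Each window runs from 250 bases before to 50 bases after the start of transcription, and capitals mark ACGTG or GCGTG on either strand, the core of the hypoxia response element bound by HIF factors, which activate glycolytic genes in low oxygen. Pkm has 2 annotated starts, and the first listed is shown.
Pfkp promoter, chr13:6648722-6649021, minus strand: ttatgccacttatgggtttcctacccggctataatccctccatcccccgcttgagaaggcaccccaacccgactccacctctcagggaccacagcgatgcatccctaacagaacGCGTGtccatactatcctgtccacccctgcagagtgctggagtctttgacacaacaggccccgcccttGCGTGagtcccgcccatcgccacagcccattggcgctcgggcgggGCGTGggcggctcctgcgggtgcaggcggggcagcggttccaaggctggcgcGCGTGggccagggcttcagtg
Slc16a3 promoter, chr11:120948817-120949116, plus strand: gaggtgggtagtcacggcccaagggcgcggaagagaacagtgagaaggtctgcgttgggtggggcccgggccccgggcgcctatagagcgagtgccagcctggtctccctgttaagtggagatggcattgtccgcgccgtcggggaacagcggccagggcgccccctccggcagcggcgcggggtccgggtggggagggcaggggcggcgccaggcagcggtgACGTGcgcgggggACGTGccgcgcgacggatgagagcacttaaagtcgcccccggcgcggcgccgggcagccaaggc
Pkm promoter, chr9:59656326-59656625, plus strand: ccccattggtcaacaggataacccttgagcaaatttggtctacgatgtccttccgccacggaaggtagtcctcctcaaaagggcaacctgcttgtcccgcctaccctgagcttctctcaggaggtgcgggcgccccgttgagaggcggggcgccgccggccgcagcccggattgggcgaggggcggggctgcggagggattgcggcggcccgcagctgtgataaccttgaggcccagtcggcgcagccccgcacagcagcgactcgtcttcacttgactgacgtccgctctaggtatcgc
The Pfkp window holds 4 such cores, the Slc16a3 window 2, and the Pkm window 0; the window at the second Pkm start (chr9:59656977-59657276) holds 2.

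Over the 33 members with an entry, 27 (81.8%) have the core in at least 1 of their windows, against 46.7% of the 27025 genes in the promoter table. The called and the uncalled members were alike in this: 16 of 20 called members (80.0%) and 11 of 13 uncalled ones (84.6%) have it. Counted over single windows, the core is in 72.5% of 51 member windows and 43.8% of all 32851. The E-box CACGTG, which contains the ACGTG core, is in 6 member genes (18.2%) and 8.09% of all genes. The GATA motif AGATAA is in 4 (12.1%) against 12.7% of all genes, and the MEF2 consensus of muscle genes in 2 (6.06%), Pgam2 and Pfkfb1, against 3.70%. The shares of all genes were not limited to the 16372 genes tested here, nor matched to the members for expression or base composition. These matches are descriptions of letters in the windows, and binding was not measured.

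Both glucose transporters fell. Slc2a4 (GLUT4, ENSMUSG00000018566, chromosome 11, 69942539 to 69948188 on GRCm38), the insulin-responsive transporter of muscle and fat, read 100.7, 103.9, 93.9 and 100.5 CPM in the WT replicates and 70.7, 68.5, 71.99 and 65.6 CPM in the mutant replicates. The mutant libraries were close to each other and far below WT (-0.53 ± 0.04, adjusted p = 6.2e-06). Slc2a1 (GLUT1), the transporter that dominates in the fetal heart and also in red cells and endothelium, read 200, 225, 210 and 215 CPM in WT and 187, 169, 141 and 131 CPM in the mutants. Its mutant libraries spread widely, with replicate 1 just under the lowest WT library, and the call was marginal (-0.44 ± 0.11, adjusted p = 0.0496). The call was lost when any WT library, mutant replicate 2 or mutant replicate 3 was left out (adjusted p from 0.082 to 0.13) and with RLE scaling (adjusted p = 0.053) or library totals (adjusted p = 0.0504). With Xist as a covariate its log2 fold change was -0.12 (adjusted p = 0.65) and with haemoglobin -0.35 (adjusted p = 0.41).

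Hexokinase traps glucose in the cell as glucose 6-phosphate. Hk2, the insulin-regulated muscle form (ENSMUSG00000000628, chromosome 6, 82725025 to 82774454), read 285, 297, 299 and 293 CPM in WT and 220, 190, 178 and 167 CPM in the mutants. The WT libraries were nearly equal and every mutant library was lower, a fall of 35.7% (-0.64 ± 0.07, adjusted p = 0.00041). The broadly expressed Hk1 fell less, from 584, 594, 577 and 586 CPM in WT to 537, 518, 524 and 484 CPM in the mutants (-0.18 ± 0.04, adjusted p = 0.0061). Gpi1, the isomerase that makes fructose 6-phosphate, read 1027, 1141, 1040 and 1087 CPM in WT and 906, 972, 875 and 849 CPM in the mutants (-0.25 ± 0.05, adjusted p = 0.0030).

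Phosphofructokinase, the committed step of glycolysis, is built from subunits of 3 genes, and all 3 fell. Pfkp, the platelet-type subunit (ENSMUSG00000021196, chromosome 13, 6579768 to 6648777), read 472, 468, 437 and 460 CPM in WT and 343, 334, 301 and 294 CPM in the mutants (-0.53 ± 0.05, adjusted p = 1.6e-05). The liver-type Pfkl read 417, 441, 426 and 462 CPM in WT and 366, 378, 343 and 334 CPM in the mutants (-0.30 ± 0.05, adjusted p = 0.00071). The muscle-type Pfkm went from 449 ± 21.7 to 373 ± 16.9 CPM (-0.27 ± 0.04, adjusted p = 0.0012). For none of the 3 did the genotypes overlap.

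The bifunctional PFKFB enzymes set the level of fructose 2,6-bisphosphate, the main activator of phosphofructokinase, and were scarce. Pfkfb2, the heart form, was the only one called: 26.3, 27.4, 23.9 and 28.0 CPM in WT and 23.0, 21.6, 22.7 and 21.5 CPM in the mutants (-0.25 ± 0.06, adjusted p = 0.014). Its call was lost without WT replicate 4 (adjusted p = 0.0503) and within the 5 libraries with airway RNA (adjusted p = 0.073), and with the Xist (adjusted p = 0.42) and haemoglobin covariates (-0.17, adjusted p = 0.39). Pfkfb1 read 3.26, 2.60, 2.57 and 2.5 CPM in WT and 3.49, 3.77, 2.53 and 3.02 CPM in the mutants, with overlapping groups (0.23 ± 0.17, 95% interval -0.14 to 0.60, adjusted p = 0.45). Pfkfb3, the inducible form, went from 35.2 ± 2.64 to 30.9 ± 4.21 CPM (-0.19 ± 0.09, adjusted p = 0.23). It was called lower without mutant replicate 1 (-0.27, adjusted p = 0.023) and within the 5 libraries with airway RNA (-0.38, adjusted p = 0.0029). Pfkfb4, at 6.86 ± 0.49 CPM in WT, did not pass (-0.13 ± 0.11, adjusted p = 0.55).

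Aldolase and triose phosphate isomerase split the hexose and interconvert the triose products. Aldoa, the muscle aldolase, read 2603, 2990, 2458 and 2740 CPM in WT and 2124, 2187, 1970 and 1930 CPM in the mutants (-0.39 ± 0.06, adjusted p = 0.00073). Tpi1 read 1192, 1329, 1188 and 1277 CPM in WT and 1022, 1082, 965 and 984 CPM in the mutants (-0.30 ± 0.05, adjusted p = 0.00089). The genotypes stood apart for both. Aldoc, the brain-type aldolase, was near 22.6 CPM in WT and 20.9 CPM in the mutants and was not called (-0.11 ± 0.06, adjusted p = 0.26).

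In the payoff phase, which yields ATP and pyruvate, 6 of 7 members fell. Pkm, pyruvate kinase, read 1907, 2106, 1957 and 2003 CPM in WT and 1525, 1608, 1585 and 1465 CPM in the mutants (-0.37 ± 0.04, adjusted p = 0.00011). Eno3, the muscle enolase, read 687, 792, 675 and 702 CPM in WT and 461, 513, 539 and 479 CPM in the mutants (-0.52 ± 0.06, adjusted p = 0.00012). Both were lower in each mutant library than in any WT library, and Eno3 fell by 30.3%. The ubiquitous enolase Eno1 went from 980 ± 40.7 to 888 ± 63.6 CPM, with overlapping groups (-0.14 ± 0.05, adjusted p = 0.081), and DESeq2 called it lower (adjusted p = 0.044). Gapdh, the dehydrogenase that forms NADH, fell from 3106 ± 225.6 to 2540 ± 107 CPM (-0.29 ± 0.05, adjusted p = 0.0020). The phosphoglycerate kinase Pgk1 fell from 1087 ± 35.5 to 888 ± 63.2 CPM (-0.29 ± 0.05, adjusted p = 0.0012). Of the mutases, the ubiquitous Pgam1 (-0.22 ± 0.05, adjusted p = 0.010) and the muscle form Pgam2 (-0.20 ± 0.05, adjusted p = 0.027) fell by similar amounts. The call of Pgam2 was lost when WT replicate 1 or 2 or mutant replicate 1, 2 or 4 was left out (adjusted p from 0.059 to 0.069), without TMM scaling (adjusted p = 0.052), within the 5 libraries with airway RNA (adjusted p = 0.17), and with the Xist (-0.11, adjusted p = 0.63) and haemoglobin covariates (adjusted p = 0.12).

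Gapdh and Tpi1 lie close to Chd4 itself on chromosome 6 (125095981 to 125130591), at 31.1 kb and 281.7 kb from it. Linked sequence carried along with the mutant allele and the mutation itself cannot be told apart for this pair. Their log2 fold changes were -0.29 and -0.30, beside a median of -0.26 over the members, and the part of linked sequence in them was not tested.

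Of the lactate dehydrogenase subunits, the muscle-type Ldha fell and the heart-type Ldhb was not called. Ldha read 1733, 1881, 1744 and 1788 CPM in WT and 1412, 1515, 1323 and 1333 CPM in the mutants (-0.36 ± 0.05, adjusted p = 0.00025). Ldhb was at 763 ± 44.1 CPM in WT and 711 ± 25.2 CPM in the mutants (-0.10 ± 0.05, 95% interval -0.20 to -0.0043, adjusted p = 0.17).

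Slc16a3 (MCT4, ENSMUSG00000025161, chromosome 11, 120948480 to 120960868), the lactate exporter of glycolytic cells, showed the largest fall of all members. It read 209, 230, 215 and 222 CPM in WT and 134, 141, 119 and 110 CPM in the mutants. Every mutant library was far below the lowest WT library, a fall of 42.4% (-0.79 ± 0.07, adjusted p = 8.7e-05). Slc16a1 (MCT1), which carries lactate in either direction, went from 220 ± 13.2 to 201 ± 4.30 CPM and just missed the threshold (-0.14 ± 0.04, adjusted p = 0.055). Slc16a1 passed by DESeq2 (adjusted p = 0.035) and without WT replicate 4 (adjusted p = 0.015).

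Of 4 genes for glycogen synthesis, Gys1 and Ugp2 fell. Gys1, the muscle glycogen synthase, read 299, 281, 283 and 295 CPM in WT and 235, 239, 228 and 214 CPM in the mutants (-0.34 ± 0.04, adjusted p = 0.00011). Ugp2, which makes the UDP-glucose that the synthase uses, read 251, 258, 226 and 226 CPM in WT and 190, 188, 180 and 177 CPM in the mutants (-0.39 ± 0.05, adjusted p = 0.00013). The primer protein glycogenin, Gyg (-0.16 ± 0.06, adjusted p = 0.11), and the branching enzyme Gbe1 (-0.11 ± 0.04, adjusted p = 0.11) did not pass. Gyg was called lower without mutant replicate 2 (adjusted p = 0.0497), with no filter on low counts (adjusted p = 0.013), with the airway covariate (adjusted p = 0.015) and within the 5 libraries with airway RNA (adjusted p = 0.0068). The mutant libraries of Gbe1 nevertheless all lay below its WT libraries (77.1 to 85.2 CPM against 86.6 to 93.7 CPM).

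Of the 4 genes for glycogen breakdown, none was called lower or higher by edgeR or by DESeq2, and none had an unadjusted p under 0.05. The muscle phosphorylase Pygm was at 536 ± 19.8 CPM in WT and 502 ± 35.5 CPM in the mutants (-0.10 ± 0.05, 95% interval -0.20 to 0.01). The brain-type phosphorylase Pygb, at 583 ± 15.8 and 555 ± 21.2 CPM, had a log2 fold change of -0.07 ± 0.04 (95% interval -0.15 to 0.01). Of the phosphorylase kinase subunits that switch these enzymes on, Phka1 was at 39.3 ± 1.29 and 39.1 ± 1.05 CPM (0.00 ± 0.05, 95% interval -0.10 to 0.09). Phkg1 was scarce, at 6.51 ± 0.29 and 5.31 ± 1.28 CPM, and its interval of -0.61 to 0.02 is wide. Without mutant replicate 1 it was called lower (-0.45, adjusted p = 0.044). The intervals of Pygm, Pygb and Phka1 leave room for small falls, and the difference between synthesis and breakdown was not tested.

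**Figure D2:**
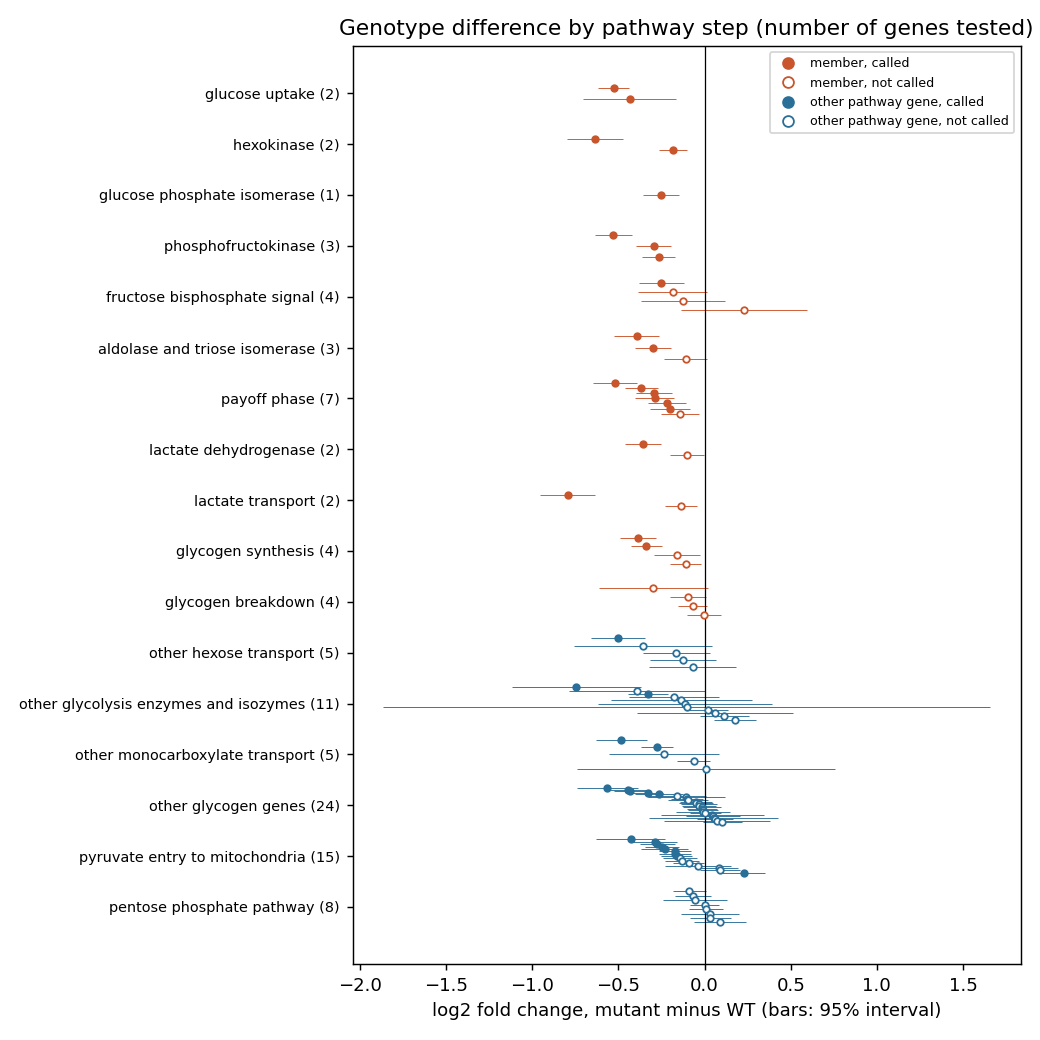
Log2 fold change (mutant minus WT, x axis) of each tested gene with its 95% interval, by pathway step, for the 34 members (orange) and the 68 tested genes of the wider pathway (blue); filled points were called. Filled orange points sit left of 0 in all steps except glycogen breakdown, and the pentose phosphate genes cluster around 0.

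Levels per length, in RPKM (CPM per kilobase of exons, with the exon lengths of the count files), allow genes to be set side by side. In WT the most abundant members were Gapdh at 751, Aldoa at 717, Ldha at 540, Ldhb at 486, Pgk1 at 484 and Pgam2 at 483 RPKM. Among the glucose transporters Slc2a1 (60.5 RPKM) was above Slc2a4 (28.7 RPKM), and Hk1 (68.6 RPKM) was above Hk2 (49.2 RPKM). The PFKFB genes and Phkg1 were the scarcest, between 0.68 RPKM (Pfkfb1) and 4.65 RPKM (Pfkfb3). Called members were found from the top of this order (Gapdh) down to Pfkfb2 at 3.64 RPKM.

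**Figure D3:**
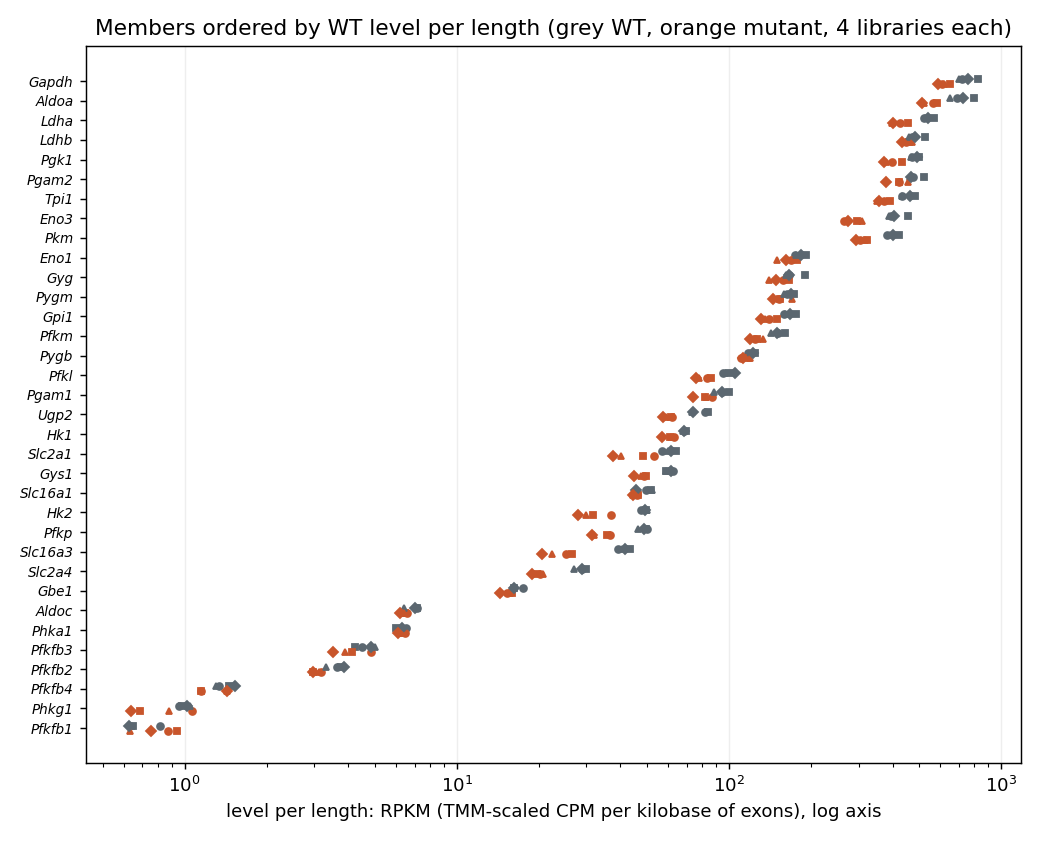
Level per length (RPKM, log x axis) of each member in each library, ordered by the WT mean, with 4 WT libraries in grey and 4 mutant libraries in orange. The members range from 0.68 RPKM (Pfkfb1) to 751 RPKM (Gapdh) in WT.

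The balance between isozymes was compared in 9 families, and none passed after adjustment. The share of 1 isozyme in the summed RPKM of its family is a ratio within a library and does not depend on the scaling between libraries. The families held only members, so that of glycogen phosphorylase was Pygm and Pygb, without the liver-type Pygl. Slc16a3 took 44.2, 45.5, 43.7 and 47.8% of the monocarboxylate transporter level (Slc16a1 and Slc16a3) in WT and 35.4, 36.4, 33.5 and 31.8% in the mutants, a difference of -11 percentage points. Hk2 took 41.1, 41.7, 42.5 and 41.7% of the hexokinase level in WT and 37.0, 34.4, 32.7 and 33.0% in the mutants (-7.49 points). In both families no mutant library reached the WT range.

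Eno3 made up 69.2 ± 0.76% of the enolase level in WT and 63.4 ± 2.74% in the mutants (-5.84 points), and Ldha 52.6 ± 0.58% and 48.2 ± 1.70% of the lactate dehydrogenase level (-4.45 points). The share of Aldoa among aldolases moved from 99.0% to 98.8%. For these 5 families the genotypes did not overlap, and the exact permutation test (two-sided, 4 against 4 libraries) gave its smallest possible p of 0.029. Benjamini-Hochberg adjustment over the 9 families gave 0.051, which did not pass.

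In the other 4 families the genotypes overlapped. Slc2a4 held 32.2 ± 1.09% of the glucose transporter level in WT and 31.0 ± 3.20% in the mutants (exact permutation p = 0.49, adjusted 0.55). Its mutant libraries were split, at 27.6 and 29.0% in replicates 1 and 2 and 34.02 and 33.5% in replicates 3 and 4. Pfkm went from 50.6 ± 1.03% to 52.4 ± 1.76% of the phosphofructokinase level (exact permutation p = 0.14, adjusted 0.21). The muscle forms Pgam2 (83.6 and 83.8%) and Pygm (57.9 and 57.4%) differed between the genotype means by less than the spread between libraries.

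**Figure D4:**
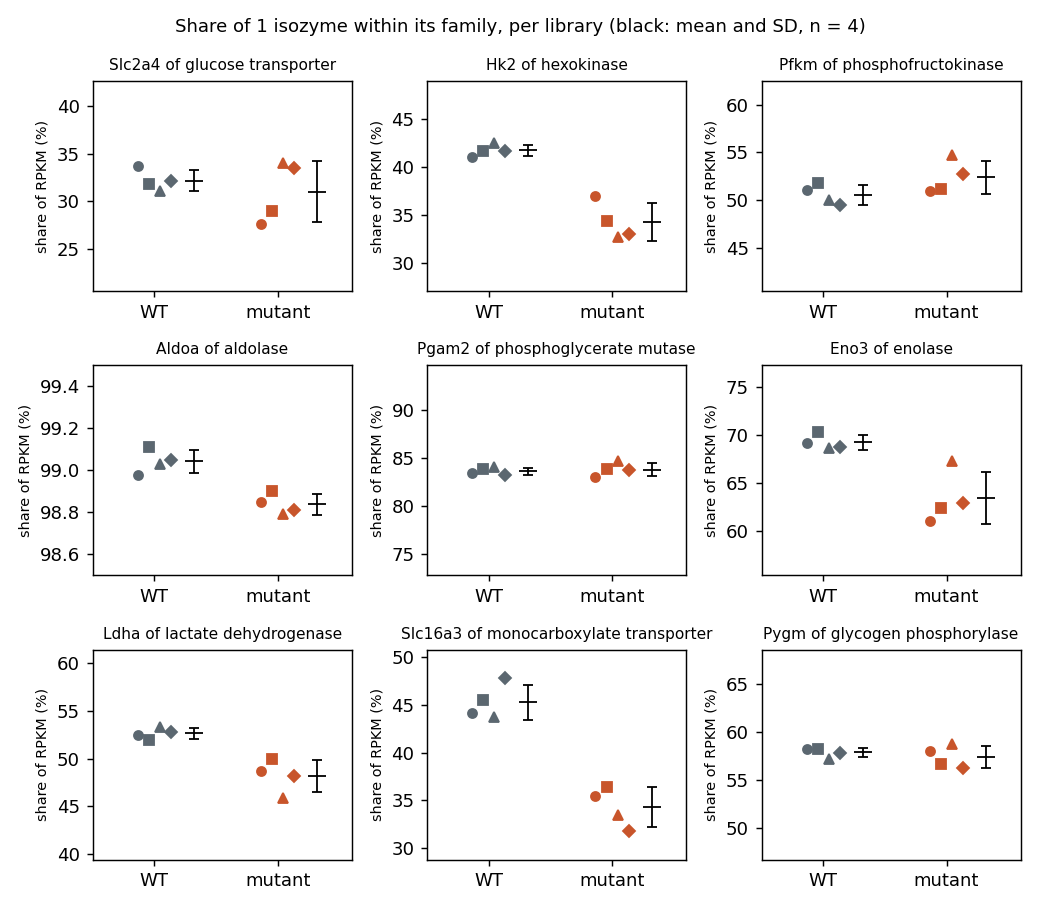
Share (%) that the named isozyme takes of its family's summed RPKM in each library (grey WT, orange mutant, shapes for replicates as in the plot of members by library; black, mean and SD, n = 4); the y axes do not start at 0, and that of aldolase covers a narrower range. The shares of Slc16a3, Hk2, Eno3, Ldha and Aldoa are lower in every mutant library than in any WT library, and the other 4 overlap.

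Beyond the members, 76 further genes of glucose and glycogen metabolism were read, of which 68 were tested; 18 fell (26.5%) and 1 rose, with a median of -0.09. Among 5 further hexose transporters Slc2a3 fell (-0.50 ± 0.07, adjusted p = 0.00045). Of 11 tested genes for other glycolytic enzymes and isozymes, the neuronal enolase Eno2 (6.77 ± 0.64 CPM in WT, -0.74 ± 0.17, adjusted p = 0.012) and Tigar, a fructose bisphosphatase (-0.33 ± 0.06, adjusted p = 0.0012), fell. These 3 genes lie 2294.3 kb (Slc2a3), 326.3 kb (Eno2) and 1954.5 kb (Tigar) from Chd4, so linked sequence cannot be told apart for them either. Among 5 further genes of monocarboxylate transport, Slc16a7 (-0.48 ± 0.07, adjusted p = 0.00034) and Bsg fell. Bsg, the chaperone that brings MCT1 and MCT4 to the membrane, went from 718 ± 40.1 to 592 ± 10.3 CPM (-0.28 ± 0.04, adjusted p = 0.00065).

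Of 24 tested further genes of glycogen metabolism, 5 fell and none rose (6 lower and 0 higher at an unadjusted p under 0.05, and 5 and 0 by DESeq2). Pygl, the liver-type phosphorylase, went from 83.3 ± 3.21 to 61.7 ± 1.83 CPM (-0.43 ± 0.04, adjusted p = 1.8e-05). Pgm1, the phosphoglucomutase that links glycogen to glycolysis, went from 320 ± 18.1 to 235 ± 13.5 CPM (-0.44 ± 0.05, adjusted p = 5.6e-05). Pygl thus fell although Pygm and Pygb were not called, and a test of the difference between them was not run.

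Pyruvate enters mitochondria through the MPC carrier and is oxidised by pyruvate dehydrogenase, which the PDK kinases switch off. Of 15 genes for these steps and for pyruvate carboxylation, 8 fell and 1 rose. Mpc1, a carrier subunit, went from 76.2 ± 4.35 to 63.1 ± 1.87 CPM (-0.27 ± 0.05, adjusted p = 0.0013). Pdhb, of the dehydrogenase, went from 563 ± 28.8 to 474 ± 21.3 CPM (-0.25 ± 0.05, adjusted p = 0.0022). The kinase Pdk1 fell too, from 447 ± 12.8 to 366 ± 36.1 CPM (-0.29 ± 0.06, adjusted p = 0.0068), while Pdk2, Pdk3 and Pdk4 were not called. Pdpr, the regulatory subunit of the phosphatase that switches the dehydrogenase on, rose from 45.5 ± 3.83 to 53.3 ± 1.85 CPM (0.23 ± 0.06, adjusted p = 0.018).

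The pentose phosphate pathway branches off glucose 6-phosphate to make NADPH and ribose. Of its 8 genes none was called in either direction by edgeR or DESeq2, and none had an unadjusted p under 0.05. Their log2 fold changes ran from -0.09 to 0.09, with a median of 0.00.

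Some counts may hold reads of other loci. For 14 members, exons overlap a neighbouring gene's, and whether reads were counted by strand is not given. The partners with the highest WT levels were Gm49759 in Pkm (90.6 CPM), Pitrm1 with Pfkp (88.3 CPM), Ruvbl2 with Gys1 (52.2 CPM) and Senp1 with Pfkm (38.1 CPM). Their log2 fold changes were -0.09, -0.05, -0.05 and 0.23. Apex2, which overlaps Pfkfb1, was more abundant than it (8.23 against 2.73 CPM in WT) and had a log2 fold change of 0.22 beside 0.23 for Pfkfb1. The part of such reads in the members' values was not tested. Gapdh, Aldoa, Ldha, Pgk1 and Pgam1 also have pseudogenes named after them in GENCODE M21, and how reads that match several loci were counted is not given.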

How the data were processed

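RNA was measured in 8 hearts, 4 WT and 4 CHD4 M195I/M195I, extracted with Trizol and made into libraries with an Illumina TruSeq kit, per the labels' protocols. The submitters' processing notes name Trimmomatic 0.36, STAR 2.5.2b, featureCounts of Subread 1.5.2 and the build GRCm38 (mm10); no source used here gives the strand and multi-mapping settings. The authors deposited raw read counts per gene, not normalized, in a file per library and a table of the series, which differed in 0 genes. Symbols were matched to 48970 of 49315 gene identifiers with GENCODE M21.

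Counts were fitted with edgeR 4.0.16 in R 4.3.3 (TMM, filterByExpr with a minimum count of 10, robust quasi-likelihood test) over all 8 libraries, with genotype as the only term and Benjamini-Hochberg adjustment over 16372 genes at 0.05. The biological coefficient of variation was 0.0908. DESeq2 1.42.0 was an alternative. No 2 libraries of a group agreed within sampling noise (chi-square per degree of freedom 2.72 to 8.52). RPKM divides CPM by the exon length in the deposited count files. Isozyme shares were compared with an exact two-sided permutation test.

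Per-library values are given in each pathway step for up to 2 called members with the smallest adjusted p, and for the largest fall and rise. From each wider list up to 2 called genes per direction are named, and the PDK kinases in addition. Members not called are given by level and fold change. The members and lists were chosen with earlier results of these data known.

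The alternatives were other scalings and filters, leaving out each library, a replicate block, covariates for Xist and airway RNA, and the series table. Splits by airway RNA (Scgb3a2 of at least 10 CPM) and a haemoglobin covariate were chosen after seeing the data. The MEF2 motif was searched by its usual consensus.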

Additional observations from a re-analysis of the deposited data

Results flagged for a closer look

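In 86 groups of 4 libraries, 3 had a library far from the other 3 by Dixon's criterion, and chance alone marks about 1 in 20. Pfkfb1 was at 3.264 CPM in WT replicate 1 and between 2.5 and 2.597 CPM in the other WT libraries. Aldoc was at 20.87 CPM in WT replicate 3 and between 22.89 and 23.27 CPM in the others. Gbe1 was at 93.73 CPM in WT replicate 1 and between 86.6 and 87.05 CPM in the others.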

How the results depend on the processing

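All 21 called members kept their negative sign under the 20 alternatives, and 19 to 21 of them kept the call in each, except 6 with the Xist covariate and 10 with the haemoglobin covariate. The members' median was -0.1488 with the Xist covariate. No member was called higher under any alternative. The 3 libraries without airway RNA hold 1 WT library, WT replicate 2, which is assumed to vary like the mutants and has the highest WT value for 16 of the 21 called members, so values within them are no check of the members' fall. Leaving out 1 library gave 19 to 22 members called lower and a median from -0.283 to -0.2264. The same-numbered libraries correlated at -0.45, 0.728, 0.48 and -0.017 in their deviations, so the numbers were not read as pairs; with the replicate block 23 members were called lower, Gyg among them (adjusted p = 0.0073) and Slc2a1 not (adjusted p = 0.109), and 2 other pathway genes higher. Other pathway genes called higher numbered 2 with RLE scaling, library totals, no low-count filter, a filter at 1 CPM and the airway covariate, and 0 with the Xist covariate, the haemoglobin covariate and within the 5 libraries with airway RNA; leaving out 1 library gave 1 to 2. Those called lower numbered 5 with the Xist covariate, 9 with the haemoglobin covariate and 11 within the 3 libraries without airway RNA. Over all genes, 1856 were called higher with library totals; 149 lower and 117 higher with the Xist covariate; 295 and 133 with the haemoglobin covariate; 812 and 595 within the 3 libraries; and 609 higher within the 5. Leaving out 1 library gave 579 to 850 genes called higher, the lowest without WT replicate 1. In the fits with Xist and with haemoglobin, the covariate moved largely with genotype and cannot be told apart from it. The cause of these moves was not tested.

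Signs turned only for genes not called. Phka1 was at 0.0474 with library totals, 0.0015 with no filter, 0.0001 with the Xist covariate, 0.0786 within the 3 libraries and 0.0492 with the haemoglobin covariate, and leaving out 1 library moved it between -0.0252 (without WT replicate 2) and 0.0133 (without mutant replicate 4). Pfkfb3 was at 0.0799 with the Xist covariate and 0.0847 within the 3 libraries, and Phkg1 at 0.0591 with the Xist covariate. Within the 5 libraries Pfkfb1 was at -0.0032 and Pfkfb4 at 0.0394. Leaving out 1 library moved the share difference of Pgam2 between -0.1032 and 0.4354 points and that of Slc2a4 between -2.136 and 0.001551 points. Counts under 10 CPM, as for Pfkfb1, Pfkfb4 and Phkg1, limit what can be said of those genes.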
